A study of Mus musculus with 36 samples.

Results

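The B cell program transcription factors described here are 9 genes that build and hold B cell identity. They were chosen as a list of names, Pax5, Ebf1, Bach2, Spib, Bcl6, Irf8, Ets1, Pou2f1 and Foxo1, and were followed among the 54203 genes measured in 36 libraries of mouse bone marrow plasma cells. The choice was made with earlier results of these data known. All 9 were found and all 9 passed the low-count filter in both cohorts. Each library held RNA of 2000 cells sorted as CD138+TACI+ (with a reporter signal, per the design text), all of strain C57/BL6. Cohort D held Ccnd1-Ikk2ca (6 libraries), Ikk2ca(D), Ccnd1 and Control(D) (4 each). Cohort M held MMSET-Ikk2ca (6 libraries), Ikk2ca(M), MMSET and Control(M) (4 each). Ccnd1 is a D-type cyclin, MMSET is the histone methyltransferase encoded by Nsd2, and Ikk2ca stands, by its name, for an active form of IKK2, the NF-kB pathway kinase encoded by Ikbkb. The labels give neither the promoter or Cre that drives a transgene nor the age or number of the animals, and they do not say that libraries came from separate animals. P-values therefore measure the spread between these samples, which may be technical.

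In the B lineage, Ebf1 and Pax5 open and activate B cell genes, and Pax5 also represses genes of other lineages. When a B cell becomes an antibody-secreting plasma cell, Prdm1 (Blimp-1), Irf4 and Xbp1 take over, and Pax5, Bach2, Bcl6, Spib and Ets1 are switched down, several of them being known to hold that step back. Irf8, Pou2f1 and Foxo1 act in B cells and also in other cells. Low levels of the program are thus the known state of a plasma cell, and these data give what remained of it in control and transgenic plasma cells.

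Libraries held 54.0 to 97.5 M estimated reads, with an immunoglobulin share of 43.9% to 73.0%, so that other genes had 16.2 to 34.9 M. Library MMSET-Ikk2ca 6 stood apart with the lowest immunoglobulin share, 43.9%. All 8 plasma cell markers (among them Sdc1, which encodes CD138, and Tnfrsf13b, which encodes TACI) were detected in every group. The transgenes were seen in their groups: Ccnd1 lay at 281 to 983 CPM in Ccnd1-Ikk2ca and 258 to 381 CPM in Ccnd1, against 0.609 to 1.28 CPM in Control(D), and Nsd2 at 174 to 605 CPM in MMSET-Ikk2ca and 427 to 824 CPM in MMSET, against 1.87 to 4.41 CPM in Control(M). Ikbkb lay at 42.1 to 83.4 CPM in the 4 groups with Ikk2ca, against 16.2 to 39.0 CPM in the control groups. CPM here means Salmon counts scaled for library size by TMM over the 36 libraries, and TPM is used wherever levels of different genes are compared.

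Promoter sequences of 8 of the 9 genes (13 start sites) were matched in RefSeq on GRCm38.p6, each reaching from 250 bases before the start to 50 after it. Ets1 had no entry. Both Ebf1 promoters are printed because Ebf1 gave the widest difference of the 9 genes. The Spib promoter is printed because it was the only one of the 13 with NF-kB matches, which are in capitals, and NF-kB is the pathway in which IKK2 acts. The Foxo1 promoter is printed because it held the only match to the palindromic EBF motif, in capitals.

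Ebf1 chr11:44617850-44618149 (+): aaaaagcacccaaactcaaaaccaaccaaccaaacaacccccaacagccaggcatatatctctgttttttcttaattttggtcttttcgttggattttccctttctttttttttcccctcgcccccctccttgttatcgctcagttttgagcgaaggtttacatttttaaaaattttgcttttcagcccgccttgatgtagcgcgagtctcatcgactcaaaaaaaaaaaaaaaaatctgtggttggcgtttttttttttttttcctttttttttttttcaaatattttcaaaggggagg
Ebf1 chr11:44619978-44620277 (+): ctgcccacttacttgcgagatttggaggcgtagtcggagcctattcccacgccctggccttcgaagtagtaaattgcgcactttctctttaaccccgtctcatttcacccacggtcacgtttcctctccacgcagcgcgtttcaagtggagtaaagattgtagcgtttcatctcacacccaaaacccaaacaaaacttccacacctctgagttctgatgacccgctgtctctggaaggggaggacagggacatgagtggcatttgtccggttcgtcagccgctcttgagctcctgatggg
Spib chr7:44532022-44532321 (-): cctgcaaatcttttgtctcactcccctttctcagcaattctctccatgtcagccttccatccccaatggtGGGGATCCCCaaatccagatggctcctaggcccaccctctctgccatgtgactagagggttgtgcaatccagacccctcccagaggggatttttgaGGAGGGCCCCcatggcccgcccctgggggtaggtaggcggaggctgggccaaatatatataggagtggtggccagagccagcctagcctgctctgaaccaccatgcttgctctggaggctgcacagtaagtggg
Foxo1 chr3:52268087-52268386 (+): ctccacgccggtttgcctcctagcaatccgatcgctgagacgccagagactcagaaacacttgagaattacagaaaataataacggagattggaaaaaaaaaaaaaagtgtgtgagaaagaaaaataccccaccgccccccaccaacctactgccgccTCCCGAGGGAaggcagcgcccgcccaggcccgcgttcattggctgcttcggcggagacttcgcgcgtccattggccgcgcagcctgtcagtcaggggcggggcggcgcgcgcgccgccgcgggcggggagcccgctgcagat

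Both strands were searched, with the NF-kB and EBF motifs taken as short patterns and the others as fixed letters. The NF-kB motif occurred in 8.46% of all 32851 RefSeq promoters of this length, and among the 8 genes with a sequence only in that of Spib, with 2 matches. The EBF motif occurred in 0.904% of all promoters. The ETS motif CGGAAG occurred in 16.9% of all promoters and in those of Bach2 and Pax5, and the octamer ATGCAAAT in 1.74% of all promoters and in none of the 13. A match describes the letters of the window and is not a binding site. Most Ebf1 reads in the deposited tables were assigned to 3 transcripts that start at chr11:44617317, upstream of both printed windows. The 13 windows ranged from 2 CG dinucleotides at Spib and at 2 Pou2f1 starts to 38 at an Irf8 start, and the median over all promoters was 7.

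In plasma cells of Control(D) the 9 genes covered a wide range of levels. Per length, Irf8 was highest at 12.5 ± 3.58 TPM and Pou2f1 followed at 5.88 ± 2.66 TPM (SD, n = 4). Ets1 had 3.17 ± 0.277 TPM, Spib 2.10 ± 1.76 TPM and Ebf1 1.69 ± 0.440 TPM. Foxo1 had 0.792 ± 0.262 TPM, Pax5 0.449 ± 0.366 TPM, Bach2 0.386 ± 0.252 TPM and Bcl6, the germinal centre repressor, 0.0518 ± 0.0337 TPM. For 8 of the 9 genes the lowest of the 8 group means in CPM was that of a group with both transgenes, and for Irf8 it was that of Ikk2ca(M). With TPM in place of CPM the number was 7. The lowest means of Foxo1 were close, at 7.55 CPM in Ccnd1-Ikk2ca, 7.70 CPM in MMSET-Ikk2ca and 8.94 CPM in MMSET. In TPM its lowest mean was that of MMSET. With the 8 groups put in order of their means, the libraries of neighbouring groups overlapped in all 7 pairs for every gene but Ets1, for which 3 of 7 pairs did not overlap. Shares over all genes are not given for these counts of lowest means and of overlaps, so the counts only describe the 9 genes.

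**Figure D1:**
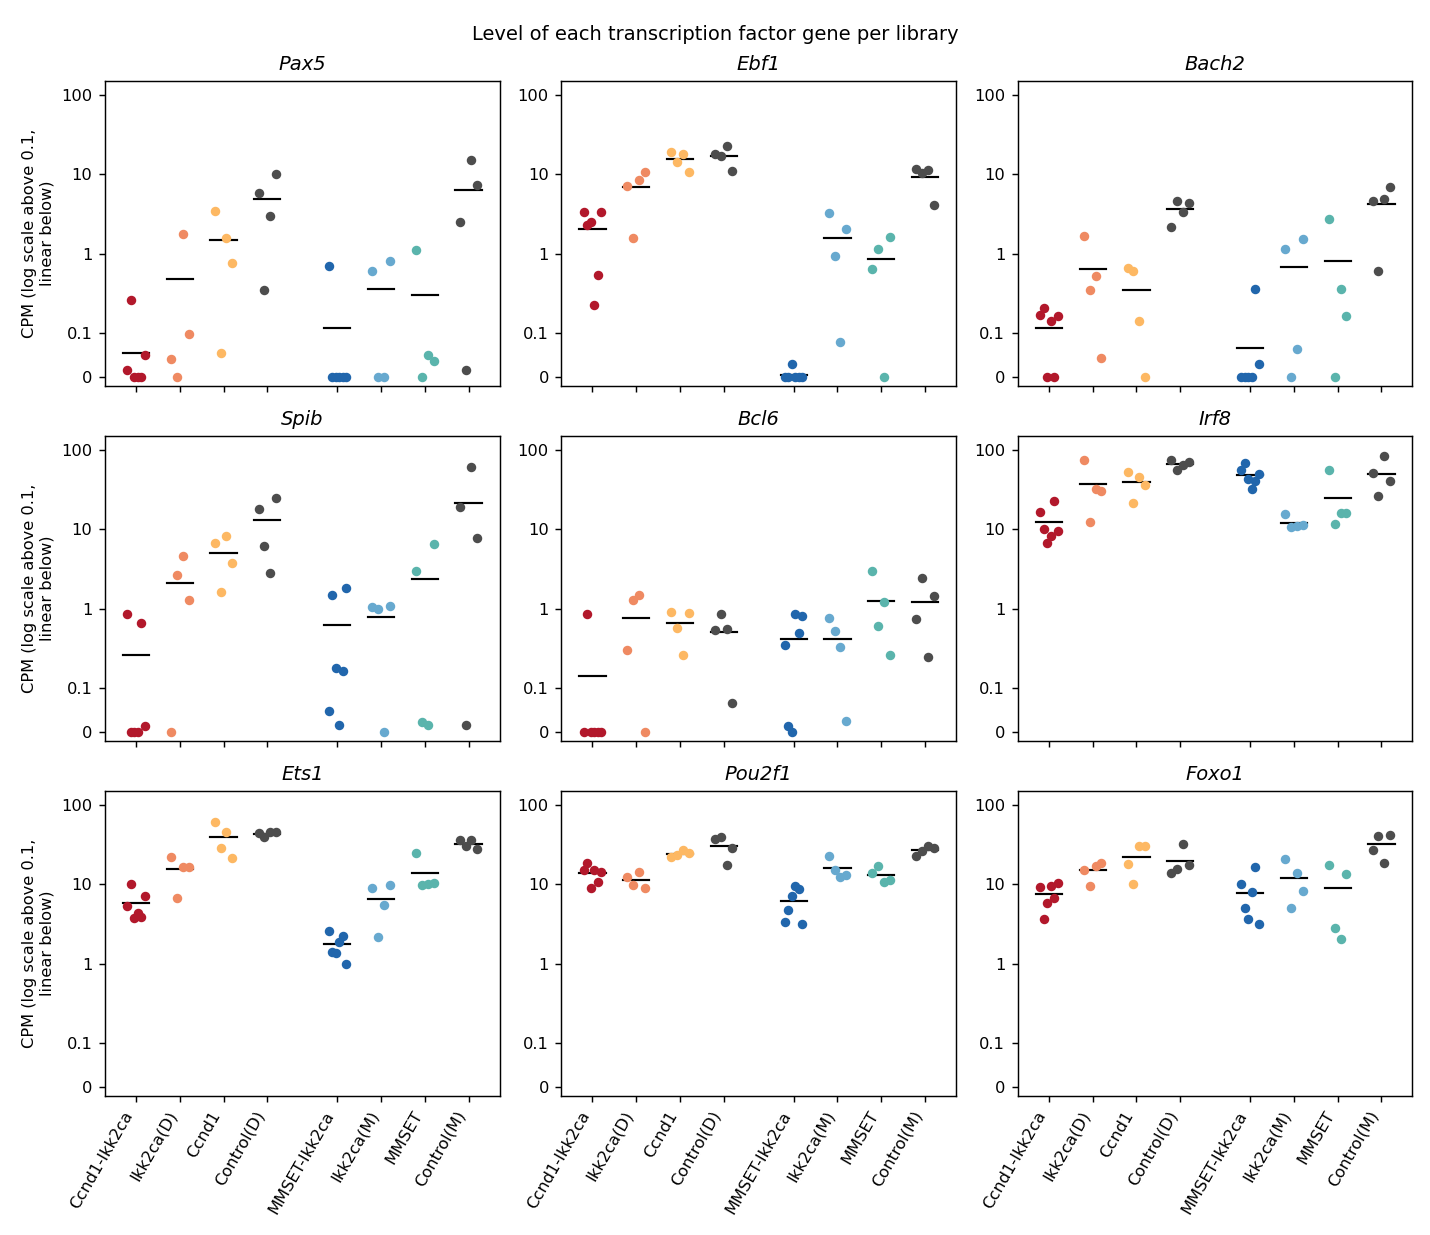
CPM of each of the 9 genes in every library (points, 1 per library; bar, group mean), with groups on the horizontal axis and a vertical axis that is logarithmic above 0.1 CPM and linear below. Ets1 shows tight control groups and lower levels in the transgenic groups of both cohorts except Ccnd1, whose libraries span the range of Control(D). Pax5, Bach2 and Spib scatter over more than a decade within groups, and Irf8 in MMSET-Ikk2ca sits at the level of Control(M).

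With both transgenes, most of the program was lower than in control plasma cells. In Ccnd1-Ikk2ca against Control(D), 8 of the 9 genes were lower and none was higher (edgeR quasi-likelihood test, Benjamini-Hochberg adjusted p under 0.05), the exception being Bcl6. Over all 15323 genes of that fit, 5.32% were called lower and 5.83% higher. Because the 9 genes were chosen with earlier results of these data known, such shares are a description and not a test. In MMSET-Ikk2ca against Control(M), 4 genes were lower and none higher, Ebf1, Ets1, Pou2f1 and Foxo1, where 3.41% of 15416 genes were called lower and 3.5% higher. The median log2 fold change of the 9 genes was -2.93 in Ccnd1-Ikk2ca and -4.22 in MMSET-Ikk2ca, beside medians of 0.021 and 0.012 over all genes tested. Counts of calls with a library left out were 7 to 9 in cohort D and 3 to 5 in cohort M. There the count was 3 without any 1 of the 4 Control(M) libraries or without MMSET-Ikk2ca 2, 3, 4 or 6, each time with Foxo1 not called.

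A single transgene gave few calls. Ccnd1 alone gave 0 of 9, where 0.0% of all genes were called lower. The tool was edgeR, Bach2 was the 1 gene with an unadjusted p under 0.05 (adjusted p = 0.739), and DESeq2 also gave 0. The share of all genes at that unadjusted threshold is not given for Ccnd1, so the count only describes the 9 genes. MMSET alone gave 0 of 9 by edgeR, where 0.175% of all genes were called lower, with 5 of the 9 (Ebf1, Irf8, Ets1, Pou2f1 and Foxo1) at an unadjusted p under 0.05 and 1 call (Ebf1) by DESeq2. Over all 15416 genes, 2048 had an unadjusted p under 0.05 and DESeq2 called 636. In Ikk2ca(D) only Pou2f1 was lower, where 0.0392% of all genes were called lower, and in Ikk2ca(M) Irf8 and Ets1 were lower, where the share was 0.143%. Without Control(D) 2 or Ikk2ca(D) 2 the Pou2f1 call was lost, with 0 of 9 genes left.

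Counted as groups without overlap, every transgenic library lay below every control library for 7 genes in Ccnd1-Ikk2ca (5.89% of all genes) and for 5 in MMSET-Ikk2ca (4.48%). The numbers were 4 in Ikk2ca(D) (3.46%), 2 in Ccnd1 (1.36%), 3 in Ikk2ca(M) (3.51%) and 4 in MMSET (2.94%). No gene of the 9 had every transgenic library above every control library in any of these comparisons, where 6.9% of all genes did so in Ccnd1-Ikk2ca, 4.79% in MMSET-Ikk2ca, 4.18% in Ikk2ca(D), 1.57% in Ccnd1, 4.44% in Ikk2ca(M) and 3.13% in MMSET.

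**Figure D2:**
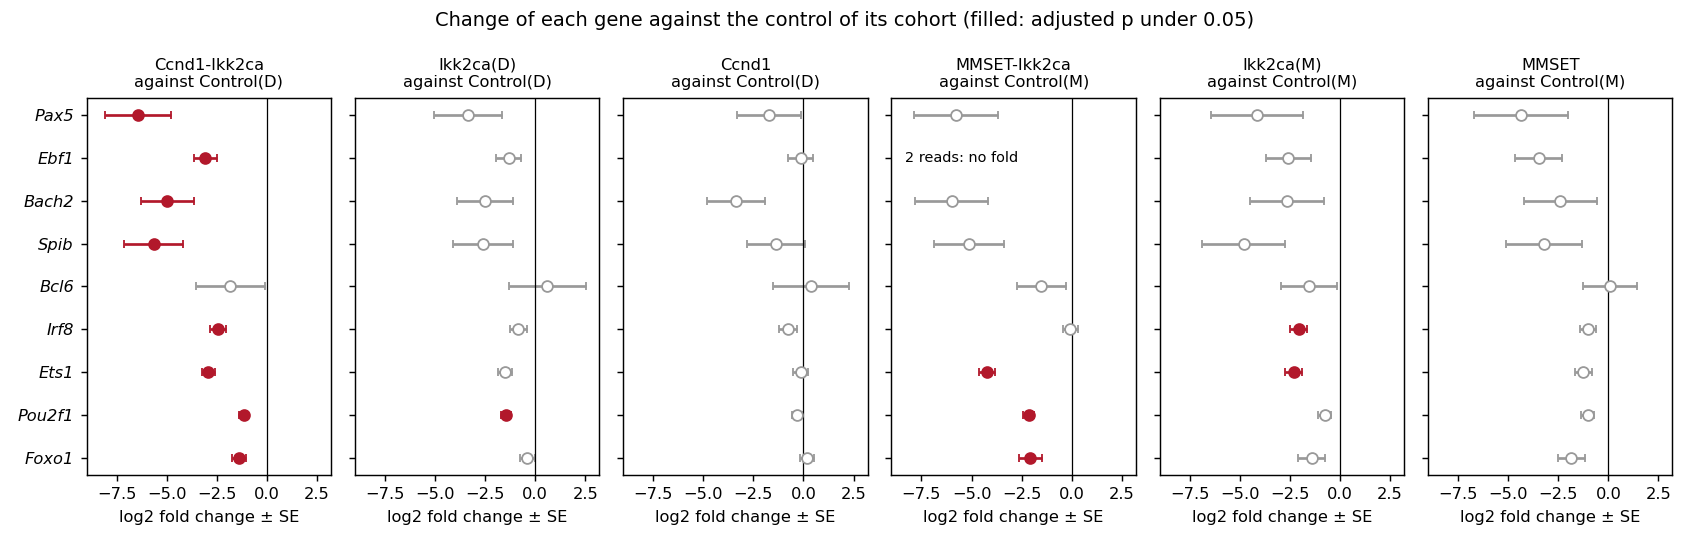
Log2 fold change against the control of the same cohort (horizontal axis, point with SE) for the 9 genes in 6 comparisons, filled where the adjusted p was under 0.05. Most points lie left of 0, filled points are most frequent in the 2 groups with both transgenes, and no fold is drawn for Ebf1 in MMSET-Ikk2ca, which had 2 reads in all.

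Ebf1 (chr11:44617317-45008091, plus strand), the factor that starts the B cell program, had the lowest group mean of the 9 genes, in CPM and in TPM, in MMSET-Ikk2ca. It had no read there in 5 of 6 libraries and 2 reads in the other, 0.0295 CPM, against 11.8, 10.2, 11.3 and 4.07 CPM in Control(M). The 2 groups were far apart and did not overlap. The 2 reads against 2352 reads in Control(M) gave a level 2120-fold lower after scaling (95% exact interval 586 to 17512, for counting error only, with PCR copies not told apart), and the call had an adjusted p of 0.000189 in edgeR. It kept its call in all 10 fits that left out a library.

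The single transgenes of cohort M had Ebf1 at an intermediate level. Ikk2ca(M) had 3.23, 0.921, 0.0785 and 2.05 CPM and MMSET had 0.645, 1.13, 0 and 1.63 CPM, all below the 4 control libraries. Neither difference from Control(M) passed the edgeR test (adjusted p = 0.349 for Ikk2ca(M) and 0.209 for MMSET). Ebf1 was lower in MMSET-Ikk2ca than in MMSET (adjusted p = 0.00797) and than in Ikk2ca(M) (adjusted p = 0.00449, edgeR). Both calls came from the fit of all cohort M libraries. With only the groups compared, Ebf1 did not pass the low-count filter and was not tested. With the replicate block both calls were lost (adjusted p = 0.156 against MMSET and 0.115 against Ikk2ca(M), edgeR). No fold is given, as it would rest on 2 reads.

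In cohort D, Ebf1 kept more of its level. Ccnd1-Ikk2ca had a lowest of 0.224, a median of 2.40 and a highest of 3.39 CPM, and Control(D) had 18.1, 17.1, 22.6 and 11.1 CPM, with no overlap. The log2 fold change was -3.07 (SE 0.58, adjusted p = 0.00256, edgeR), called in all 10 fits with a library left out. Ccnd1 had 19.3, 14.4, 18.2 and 10.6 CPM, inside the control range but for 1 library, and Ikk2ca(D) had 7.07, 1.56, 8.50 and 10.6 CPM, below every control library but not called (adjusted p = 0.378, edgeR). Ebf1 was also lower in Ccnd1-Ikk2ca than in Ccnd1, with a log2 fold change of -2.94 (SE 0.57, adjusted p = 0.0051).

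The drop of Ebf1 differed between the cohorts. The fit over all 36 libraries, which set each double transgenic group against its own control, gave a difference of the effects of 7.45 on the log2 scale with the smaller drop in Ccnd1-Ikk2ca (SE 1.40, adjusted p = 0.0107, edgeR), where 0.117% of 17116 genes were called in that direction. The size rests on 2 reads, while the call held in all 20 fits with a library left out. The same contrast called no other of the 9 genes.

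Pax5 (chr4:44524757-44710487, minus strand), which commits cells to the B lineage, was near 0 in both double transgenic groups. Ccnd1-Ikk2ca had 0.0155, 0.260, 0, 0, 0 and 0.0507 CPM (25 reads over 6 libraries), against 5.75, 0.352, 3.01 and 10.1 CPM in Control(D). The groups did not overlap, although the control libraries themselves spread widely. The log2 fold change was -6.42 (SE 1.65, adjusted p = 0.0173, edgeR). With the replicate block this call was lost (adjusted p = 0.315, edgeR). MMSET-Ikk2ca had 0.693 CPM in 1 library and no read in the other 5, against 2.48, 0.0161, 15.2 and 7.31 CPM in Control(M), so that the groups overlapped. That difference of -5.77 (SE 2.10) was not called (adjusted p = 0.107, edgeR), but without MMSET-Ikk2ca 1, the only library with reads, the adjusted p was 0.0230. Ikk2ca(D) had 0.0396, 0, 1.77 and 0.0973 CPM and Ccnd1 3.46, 0.0544, 1.58 and 0.764 CPM, and neither was called. Ikk2ca(M) and MMSET each stayed at or below 1.11 CPM and were not called.

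Bach2 (chr4:32238804-32586108, plus strand) represses Prdm1 and delays the plasma cell step. It reached 0.208 CPM at most in Ccnd1-Ikk2ca, with a median of 0.152, against 2.18, 4.65, 3.33 and 4.29 CPM in Control(D). The groups did not overlap, and the log2 fold change was -4.96 (SE 1.31, adjusted p = 0.0198, edgeR). Without Control(D) 2 the adjusted p was 0.0517, and with the replicate block it was 0.0663. Ikk2ca(D) (1.64, 0.348, 0.525 and 0.0432 CPM) and Ccnd1 (0.655, 0.599, 0.140 and 0 CPM) also lay wholly below Control(D), without a call. In cohort M, MMSET-Ikk2ca had no read in 4 of 6 libraries and 0.360 and 0.0298 CPM in the others, against 4.64, 0.596, 4.93 and 6.90 CPM in Control(M). The groups did not overlap, yet the difference of -5.99 (SE 1.82) narrowly missed the threshold (adjusted p = 0.0538, edgeR). It was called under DESeq2 (adjusted p = 0.00375) and without MMSET-Ikk2ca 5 (adjusted p = 0.0117).

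Bcl6 (chr16:23965052-23988852, minus strand), the repressor of the germinal centre B cell, was low everywhere. No library reached 3 CPM, the group means lay between 0.141 CPM in Ccnd1-Ikk2ca and 1.26 CPM in MMSET, and it was called in none of the 14 comparisons. In Ccnd1-Ikk2ca 5 of 6 libraries had no read and the other had 0.846 CPM, inside the range of Control(D). Without that library, Ccnd1-Ikk2ca 2, its log2 fold change of -1.83 (SE 1.73, adjusted p = 0.583, edgeR) became -8.08 (adjusted p = 0.0116), a fold against a group with no read.

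Spib (chr7:44525993-44532071, minus strand) is an Ets family factor of B cells and of plasmacytoid dendritic cells. Ccnd1-Ikk2ca had a lowest of 0, a median of 0.00633 and a highest of 0.867 CPM, against 17.8, 6.10, 2.82 and 25 CPM in Control(D), with no overlap. The log2 fold change was -5.64 (SE 1.47, adjusted p = 0.0224, edgeR), and without Control(D) 4 the adjusted p was 0.0536. This call was also lost with the replicate block (adjusted p = 0.0768, edgeR) and without the low-count filter (0.0558). In cohort M the control libraries ranged from 0.0161 to 60.3 CPM, and MMSET-Ikk2ca (0.0146 to 1.82 CPM) overlapped them, with a difference of -5.13 (SE 1.76) that was not called by edgeR (adjusted p = 0.0961) and was called by DESeq2 (0.0130). Summed markers of plasmacytoid dendritic cells (6 genes) ranged from 3.06 to 35.7 CPM in Ccnd1-Ikk2ca and from 32.3 to 42.5 CPM in Control(D), and Klk1 was at 0 in every Ccnd1-Ikk2ca library. Their part in the Spib result was not tested.

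The control libraries differed among themselves in Pax5 and Spib, and some B cell surface genes differed with them. Control(M) 3 had the highest Pax5 and Spib of cohort M and also the highest Cd22 (89.0 CPM) and Cxcr5 (17.1 CPM), which mark B cells. Control(M) 2 had 1 read each of Pax5 and Spib, 1.48 CPM of Cd22 and no Cxcr5, yet 10.2 CPM of Ebf1 and 30.3 CPM of Ets1. Ebf1 and Ets1 were thus present in the control library that had next to no Pax5. The B cell surface genes Ms4a1 and Cd79a did not follow Pax5: Ms4a1 had 132 CPM in Control(M) 2 and 143 CPM in Control(M) 3, and Cd79a had 352 CPM in Control(M) 2 and 334 CPM in Control(M) 3. In such bulk samples fewer cells of a type and less RNA per cell cannot be told apart.

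**Figure D3:**
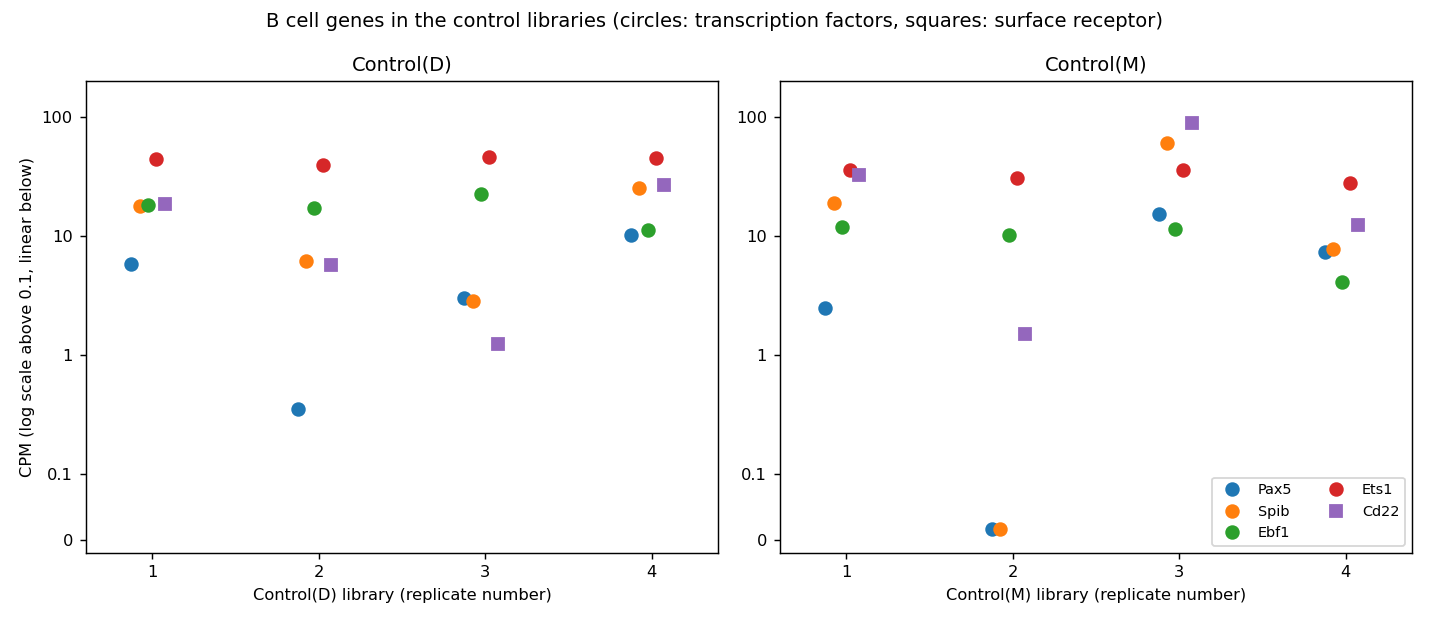
CPM of 4 of the transcription factors (circles) and of the B cell surface receptor gene Cd22 (squares) in each control library, on an axis that is logarithmic above 0.1 CPM and linear below. Ets1 stays between 27.7 and 45.9 CPM and Ebf1 between 4.07 and 22.6 CPM in the 8 control libraries, while Pax5 and Spib reach down to 0.0161 CPM in Control(M) 2.

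Ets1 (chr9:32636221-32757820, plus strand), a factor of lymphoid cells that holds back plasma cell formation, gave the most even pattern. MMSET-Ikk2ca had 2.60, 1.42, 1.37, 1.87, 2.24 and 0.993 CPM, against 35.8, 30.3, 36.01 and 27.7 CPM in Control(M). The groups were far apart, with a log2 fold change of -4.22 (SE 0.39, adjusted p = 5.52e-06, edgeR). Ccnd1-Ikk2ca had a lowest of 3.73, a median of 4.87 and a highest of 9.97 CPM, against 44.0, 39.5, 45.9 and 45.4 CPM in Control(D), a log2 fold change of -2.93 (SE 0.33, adjusted p = 2.93e-05). Both calls held in each of 10 fits with a library left out.

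Ikk2ca alone also went with less Ets1. Ikk2ca(M) had 8.96, 2.14, 5.53 and 9.71 CPM, all below Control(M), and the log2 fold change was -2.31 (SE 0.42, adjusted p = 0.0118, edgeR), with an adjusted p of 0.0549 without Ikk2ca(M) 3. Ikk2ca(D) had 22.0, 6.64, 16.7 and 16.5 CPM, all below Control(D), and the difference of -1.50 (SE 0.36) missed the threshold (adjusted p = 0.0788) in edgeR and passed it in DESeq2 (adjusted p = 0.00369). The Ikk2ca effects in the 2 cohorts were not called different for Ets1 (0.80, SE 0.55, adjusted p = 0.978), nor for any of the 9 genes, in a contrast in which edgeR called 0.0% of 17116 genes (1079 at an unadjusted p under 0.05, and 270 called by DESeq2).

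The other single transgenes are given side by side for Ets1. Ccnd1 had 61.2, 28.8, 45.7 and 21.4 CPM, a range that held all of Control(D), while MMSET had 24.7, 9.82, 10.1 and 10.2 CPM, all below Control(M). Neither was called (adjusted p = 1 for Ccnd1 and 0.19 for MMSET, edgeR). Ets1 was lower in Ccnd1-Ikk2ca than in Ccnd1, with a log2 fold change of -2.78 (SE 0.33, adjusted p = 6.41e-05), and lower in MMSET-Ikk2ca than in MMSET, at -2.98 (SE 0.37, adjusted p = 0.000414). Against Ikk2ca(M) it was also lower, with a log2 fold change of -1.91 (SE 0.37, adjusted p = 0.0139), a call lost without Ikk2ca(M) 1 (adjusted p = 0.0533) or Ikk2ca(M) 4 (adjusted p = 0.0616). Against Ikk2ca(D), Ccnd1-Ikk2ca differed by -1.43 (SE 0.32, adjusted p = 0.0603), which was called without Ccnd1-Ikk2ca 2 or Ikk2ca(D) 2.

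Irf8 (chr8:120736358-120756694, plus strand), an interferon regulatory factor of B cells and of myeloid cells, was lower with both transgenes in cohort D and not in cohort M. Ccnd1-Ikk2ca had a lowest of 6.67, a median of 9.78 and a highest of 22.6 CPM, against 74.6, 55.7, 65.0 and 70.5 CPM in Control(D), with no overlap. The log2 fold change was -2.44 (SE 0.40, adjusted p = 0.0012, edgeR), called in all 10 fits with a library left out. MMSET-Ikk2ca had 56.2, 68.7, 43.7, 32.2, 40.3 and 49.9 CPM, inside the range of 51.2, 26.0, 83.4 and 41.2 CPM in Control(M), and the log2 fold change was -0.06 (SE 0.38, adjusted p = 0.96). In TPM the mean of Irf8 was highest of all 8 groups in MMSET-Ikk2ca, and in CPM it was highest in Control(D).

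Irf8 was lower in Ikk2ca(M), which had 15.7, 10.7, 10.9 and 11.4 CPM, all below Control(M), with a log2 fold change of -2.06 (SE 0.43, adjusted p = 0.033, edgeR). The call was fragile: it held in 1 of 8 fits with a library left out, the one without Control(M) 2, and adjusted p-values of the other 7 reached 0.139. Irf8 was higher in MMSET-Ikk2ca than in Ikk2ca(M), with a log2 fold change of 1.998 (SE 0.41, adjusted p = 0.0225), where 0.428% of all genes were called higher. That call was lost without any 1 of the 4 Ikk2ca(M) libraries (adjusted p up to 0.0904), although the 2 groups did not overlap. Markers of other cells that express Irf8 varied between these groups as well. The 6 plasmacytoid dendritic cell markers had a median sum of 31.2 CPM in MMSET-Ikk2ca, 11.8 CPM in Ikk2ca(M), 6.51 CPM in MMSET and 24.3 CPM in Control(M). Klk1 was at 0 in all 3 transgenic groups. Most single markers did not follow the sum. Between MMSET-Ikk2ca and Ikk2ca(M) none of the 5 tested was called, and 3 had a negative log2 fold change (median -0.56). Against Control(M), 4 of the 5 were negative in MMSET-Ikk2ca (median -3.58), with 1 called lower and 1 called higher. The macrophage gene C1qb had 9.94 to 34.7 CPM in MMSET-Ikk2ca, against 0.55 to 1.34 CPM in Ikk2ca(M), and was called higher (4.65, SE 0.56, adjusted p = 0.000268). It was the only 1 of 10 monocyte and macrophage markers called there, and 3 of the 10 had a negative log2 fold change. Their part in the Irf8 result was not tested.

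MMSET had 56.2, 11.6, 16.2 and 15.9 CPM of Irf8. Library MMSET 1 was the high one, and it also had the highest summed neutrophil markers of its cohort, 2758 CPM over 10 genes, where the other groups of cohort M reached 462 CPM at most. Their part in the Irf8 value was not tested. The difference from Control(M) was -1.01 (SE 0.42, adjusted p = 0.304, edgeR), and without MMSET 1 it was -1.80 (adjusted p = 0.00732). The interaction, which asks whether both transgenes together differ from the sum of the single effects, was 3.01 on the log2 scale (SE 0.59, adjusted p = 0.052, edgeR), just outside the threshold, where 0.0195% of all genes were called higher. It was called by DESeq2 (adjusted p = 2.72e-05), without MMSET 1 (0.000432), without Control(M) 2 (0.0395) and without MMSET-Ikk2ca 4 (0.0466). The double transgenic effects on Irf8 differed between the cohorts by -2.38 (SE 0.59), not called by edgeR (adjusted p = 0.0935) and called by DESeq2 (0.00183).

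**Figure D4:**
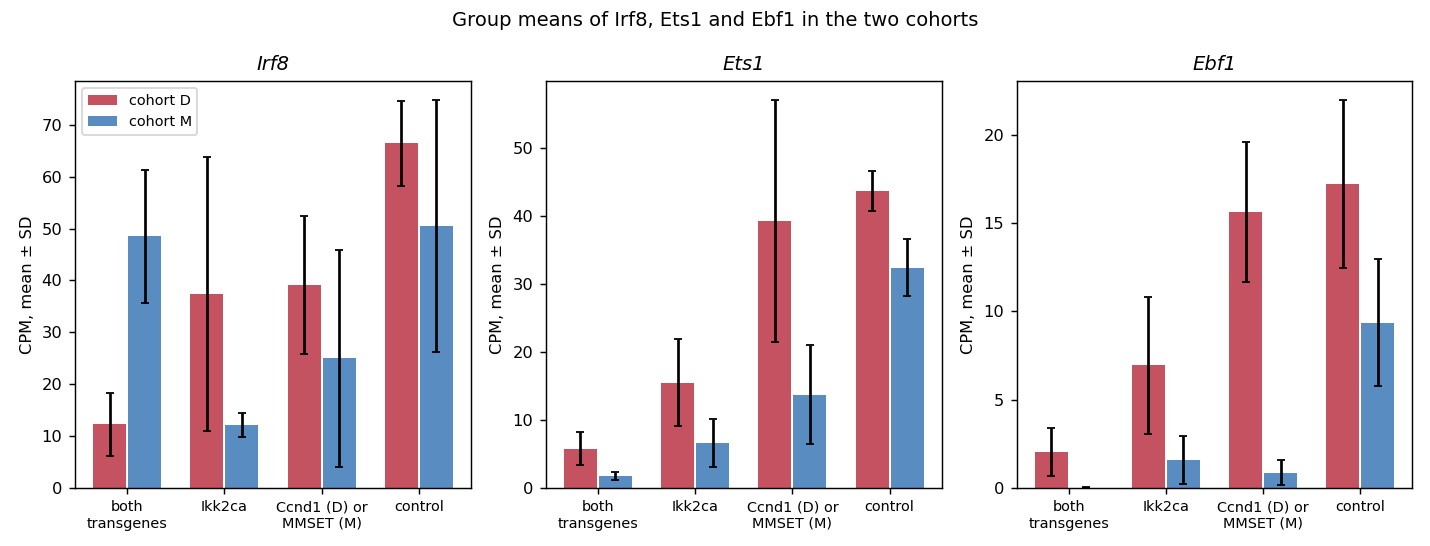
Mean CPM with SD of Irf8, Ets1 and Ebf1 in the groups with both transgenes, Ikk2ca, Ccnd1 or MMSET, and control, for cohort D (red) and cohort M (blue), n = 6 for both transgenes and 4 elsewhere. Ets1 and Ebf1 are lowest with both transgenes in either cohort, while Irf8 in MMSET-Ikk2ca (48.5 CPM) stands at the level of Control(M) (50.5 CPM) and in Ccnd1-Ikk2ca (12.2 CPM) far below Control(D) (66.5 CPM).

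Irf8 shares its locus with Gm20388, an annotated gene model on the same strand, which had 5.64 to 21.1 CPM in MMSET-Ikk2ca and 15.6 to 25.9 CPM in Control(M). Reads could be split between them. Of the Irf8 reads, 62.0% were assigned to Irf8-201 over all libraries. In MMSET-Ikk2ca the share was 55.2%, against 59.7% in Control(M).

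Pou2f1 (chr1:165865154-166002678, minus strand) encodes Oct-1, an octamer-binding factor of many cell types, and was lower in both double transgenic groups. MMSET-Ikk2ca had a lowest of 3.13, a median of 5.85 and a highest of 9.55 CPM, against 22.6, 26.4, 30.1 and 28.9 CPM in Control(M), with no overlap and a log2 fold change of -2.16 (SE 0.29, adjusted p = 0.000231, edgeR). Ccnd1-Ikk2ca had a lowest of 8.89, a median of 14.8 and a highest of 18.4 CPM, against 37.2, 39.0, 17.5 and 28.9 CPM in Control(D). Control(D) 3 overlapped the double transgenic libraries, and the log2 fold change was -1.15 (SE 0.22, adjusted p = 0.00273). Both calls held in every one of 10 fits with a library left out.

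Pou2f1 was also lower with the single transgene of Ikk2ca(D), which had 12.2, 9.70, 14.3 and 9.03 CPM, below every Control(D) library, with a log2 fold change of -1.44 (SE 0.25, adjusted p = 0.0132, edgeR). Without Control(D) 2 the adjusted p was 0.0680 and without Ikk2ca(D) 2 it was 0.0536. The call was also lost with Xist as covariate (0.0793), which passed 10 CPM in 4 of 4 Ikk2ca(D) libraries and 1 of 4 of Control(D), and with only the groups compared (0.0537). Ccnd1-Ikk2ca and Ikk2ca(D) differed by 0.29 (SE 0.23, adjusted p = 0.755). Ccnd1 had 22.0, 23.6, 26.9 and 24.9 CPM, inside the control range, and Ccnd1-Ikk2ca was lower than Ccnd1, with a log2 fold change of -0.83 (SE 0.22, adjusted p = 0.0307). That last call held in 3 of 10 fits with a library left out, those without Ccnd1-Ikk2ca 1, 2 or 4, and the adjusted p reached 0.0926 in the other 7.

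In cohort M, Pou2f1 was at 22.8, 15.2, 12.5 and 13.1 CPM in Ikk2ca(M) and at 13.7, 17.2, 10.7 and 11.4 CPM in MMSET. The MMSET libraries lay below every Control(M) library and those of Ikk2ca(M) did so but for 1, and neither was called. MMSET-Ikk2ca was lower than Ikk2ca(M), with a log2 fold change of -1.39 (SE 0.29, adjusted p = 0.0228, edgeR). The call was lost without Ikk2ca(M) 1 (adjusted p = 0.107), Ikk2ca(M) 2 (0.0514) or MMSET-Ikk2ca 2 (0.0628). The difference of -1.12 from MMSET (SE 0.29) was not called (adjusted p = 0.0584) and was called in 2 of 10 fits with a library left out.

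The transcripts that Pou2f1 reads were assigned to also varied. Pou2f1-209 took 44.2% ± 27.8 of the reads in MMSET-Ikk2ca (SD, n = 6), against 16.4% ± 19.8 in Control(M) (SD, n = 4), with overlapping ranges of 0% to 71.5% and 0% to 40.0%. Pou2f1-213 took 6.03% ± 0.995 against 13.9% ± 3.36, in ranges of 4.34% to 7.17% and 10.97% to 18.6% that did not overlap. These shares are salmon estimates without a test. Pou2f1 overlaps Cd247, a T cell receptor subunit gene on the other strand, which stayed below 1 CPM in every group (at most 0.174 CPM in MMSET-Ikk2ca and 0.962 CPM in Control(M)).

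Foxo1 (chr3:52268336-52353221, plus strand) is a factor that PI3K signalling keeps out of the nucleus. Ccnd1-Ikk2ca had a lowest of 3.67, a median of 7.93 and a highest of 10.4 CPM, against 13.8, 15.6, 32.0 and 17.7 CPM in Control(D), with no overlap. The log2 fold change was -1.39 (SE 0.33, adjusted p = 0.0112, edgeR), and without Control(D) 3 it was -1.06 (adjusted p = 0.0614). Foxo1 was also lower in Ccnd1-Ikk2ca than in Ccnd1, with a log2 fold change of -1.56 (SE 0.33, adjusted p = 0.00823), a call that held in all 10 fits with a library left out. In the fit of all 36 libraries both calls were lost (adjusted p = 0.0674 against Control(D) and 0.0571 against Ccnd1, edgeR).

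MMSET-Ikk2ca had 9.999, 4.99, 3.63, 7.999, 16.4 and 3.16 CPM of Foxo1, against 27.0, 40.6, 18.3 and 42.1 CPM in Control(M), with no overlap. The log2 fold change was -2.06 (SE 0.58, adjusted p = 0.0413, edgeR). That call was lost in 9 of 10 fits with a library left out (all but the one without MMSET-Ikk2ca 5), with adjusted p-values up to 0.103 and log2 fold changes of -2.43 to -1.89. MMSET had 17.3, 2.84, 2.01 and 13.6 CPM, all below Control(M) and not called (adjusted p = 0.239), and Ikk2ca(M) had 20.8, 5.02, 14.0 and 8.16 CPM, overlapping Control(M).

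Neither cohort showed a called interaction of its transgenes for any of the 9 genes (0 of 9 by edgeR in both). For cohort D 0.0261% of all genes were called, and 2 of the 9 had an unadjusted p under 0.05, Ets1 (-1.28, SE 0.48) and Foxo1 (-1.18, SE 0.49). DESeq2 gave 0 calls there. For cohort M 0.0973% of all genes were called, 2 of the 9 had an unadjusted p under 0.05 (Ebf1 and Irf8), and DESeq2 gave 1 call. Shares over all genes are not given for the unadjusted and DESeq2 counts of these interactions. Those counts only describe the 9 genes. Adding Ccnd1 to Ikk2ca (Ccnd1-Ikk2ca against Ikk2ca(D)) gave 0 calls of 9 by edgeR, where 0.372% of all genes were called lower, with 5 at an unadjusted p under 0.05 (Ebf1, Spib, Irf8, Ets1 and Foxo1) and 2 calls by DESeq2, beside 1737 and 407 of all 15323 genes. Adding Ikk2ca to Ccnd1 gave 5 lower (Ebf1, Irf8, Ets1, Pou2f1 and Foxo1), where 3.39% of all genes were called lower. Of these the Irf8 difference of -1.68 (SE 0.40, adjusted p = 0.0176) was lost without Ccnd1 1 (0.0723) or Ccnd1 3 (0.0595). Adding Ikk2ca to MMSET gave 2 lower (Ebf1 and Ets1), against 0.941% of all genes, and adding MMSET to Ikk2ca gave 3 lower and 1 higher, against 0.532% called lower.

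Some of the genes that Pax5 or Ebf1 are known to activate were lower with both transgenes. This list too was chosen with earlier results of these data known, so its counts are a description. In Ccnd1-Ikk2ca against Control(D), 8 of 17 tested genes of that list were called lower, 9 were not called and none was higher, beside 5.32% of all genes called lower. Their median log2 fold change was -2.25, and 14 of the 17 values were negative. Cd79a, which encodes the Ig-alpha part of the B cell receptor and is a known Ebf1 target, had 60.03 to 128 CPM against 430 to 707 CPM, a log2 fold change of -2.86 (SE 0.24, adjusted p = 2.97e-06, edgeR). Fcrla (-1.27), Vpreb3 (-2.25) and Siglecg (-4.78) were lower too.

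In MMSET-Ikk2ca against Control(M), 9 of 16 tested genes of that list were lower, 7 were not called and none was higher, beside 3.41% of all genes called lower. Their median was -2.75, and 14 of the 16 values were negative. Cd79a had 0.375 to 4.57 CPM against 324 to 389 CPM, a log2 fold change of -7.55 (SE 0.71, adjusted p = 1.83e-05, edgeR). Blk, a kinase of the B cell receptor, had 4 reads over 6 libraries against 2.51 to 25.2 CPM. Fcrla was lower too (-1.20). In this group Ebf1 and its target Cd79a were thus both near 0, while in Ccnd1-Ikk2ca both were lower and still present. Other groups did not keep this order. Ikk2ca(M) had a lower mean of Ebf1 than Ccnd1-Ikk2ca (1.57 against 2.05 CPM) and more Cd79a (132 to 274 CPM). Library MMSET 3 had no read of Ebf1 and 27.3 CPM of Cd79a. With a single transgene only Ms4a1 of this list was called, in MMSET (-2.21, SE 0.45, adjusted p = 0.0292), and none was called in Ikk2ca(D), Ccnd1 or Ikk2ca(M).

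Few genes known to be repressed by Pax5 were called. Of 7 tested, 1 was lower in Ccnd1-Ikk2ca (Jchain, the joining chain of secreted antibody) and 2 were lower in MMSET-Ikk2ca (Jchain and Xbp1), and none was higher in any of the 6 comparisons with a control. Jchain had 4092 to 16557 CPM in Ccnd1-Ikk2ca against 50213 to 95605 CPM in Control(D), and 1243 to 4072 CPM in MMSET-Ikk2ca against 27339 to 37005 CPM in Control(M). The median log2 fold change of the 7 genes was -0.44 in Ccnd1-Ikk2ca and -0.66 in MMSET-Ikk2ca. It was 0.074 in Ikk2ca(D), 0.11 in Ccnd1, -0.15 in Ikk2ca(M) and 0.16 in MMSET.

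Most genes known to be activated by Foxo1 had negative log2 fold changes with both transgenes, and few were called. Of 11 tested, 3 were lower in Ccnd1-Ikk2ca (Klf2, S1pr1 and Pik3ip1) and 1, Irs2, was higher by 1.11 (SE 0.28, adjusted p = 0.017, edgeR). There 10 of the 11 values were negative (median -1.63), beside 5.32% of all genes called lower and 5.83% higher. In MMSET-Ikk2ca, 3 were lower, among them S1pr1 and Klf2, and none was higher. There 7 of the 11 values were negative (median -1.02), beside 3.41% of all genes called lower and 3.5% higher. Klf2, a factor that keeps lymphocytes circulating, was at 0 to 0.266 CPM in Ccnd1-Ikk2ca against 7.91 to 11.9 CPM in Control(D), and at 0 to 0.336 CPM in MMSET-Ikk2ca against 1.58 to 20.1 CPM in Control(M). S1pr1, the egress receptor, had 27 reads in Ccnd1-Ikk2ca and 1 read in MMSET-Ikk2ca.

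Among 31 tested other transcription factors of the B lineage, 8 were lower and 3 higher in Ccnd1-Ikk2ca (median -0.70), and 6 were lower and 1 higher in MMSET-Ikk2ca (median -0.51). In Ccnd1-Ikk2ca, Mef2c (-0.92), Tcf4 (-0.92), Klf2 and Runx3 (-2.82) were lower, and Mef2b (1.83, SE 0.40, adjusted p = 0.00735) and the repressor Etv6 were higher (Etv6 1.52, SE 0.31, adjusted p = 0.00419, edgeR). In MMSET-Ikk2ca, Nfatc1 (-1.51), Klf2 and Runx3 (-5.45) were lower and Mef2b, a germinal centre factor, was higher (1.53, SE 0.27, adjusted p = 0.00192). Of the 8 plasma cell transcription factors, Bhlha15 (-0.98) and Ell2 (-0.60) were lower in Ccnd1-Ikk2ca, and Ell2 (-0.90) and Xbp1 (-0.73) in MMSET-Ikk2ca. None was higher in these comparisons. Prdm1 and Irf4 were called in neither.

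Markers of other cells moved as well. The 8 B cell markers summed to 98.9 to 136 CPM in Ccnd1-Ikk2ca against 156 to 317 CPM in Control(D), with Cr2 at 0 in every Ccnd1-Ikk2ca library, and to 149 to 223 CPM in MMSET-Ikk2ca against 215 to 558 CPM in Control(M). The 10 T cell markers summed to 2.04 to 6.48 CPM in Ccnd1-Ikk2ca against 8.39 to 23.1 CPM in Control(D), and to 1.35 to 4.66 CPM in MMSET-Ikk2ca against 5.01 to 19.4 CPM in Control(M). The 7 NK cell markers reached 1.67 CPM at most in Ccnd1-Ikk2ca against 14.2 to 34.4 CPM in Control(D), with Ncr1, Klrb1c and Gzmb at 0 in both groups and Eomes at 0 in Ccnd1-Ikk2ca. In MMSET-Ikk2ca they reached 1.45 CPM at most against 4.42 to 11.3 CPM in Control(M). Their part in the results for Ets1, Pax5, Spib and the other genes was not tested.

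The 10 monocyte and macrophage markers summed to 3754 to 7516 CPM in Ccnd1-Ikk2ca against 599 to 928 CPM in Control(D), and to 4874 to 10200 CPM in MMSET-Ikk2ca against 1658 to 3614 CPM in Control(M). Most of that sum was Ly6c2, a surface gene that antibody-secreting cells carry too, with 3741 to 7506 CPM in Ccnd1-Ikk2ca against 490.4 to 853 CPM in Control(D). The defining macrophage gene Adgre1 had 1 read and Cd14 none in Ccnd1-Ikk2ca. In cohort M the macrophage gene C1qb was called higher in MMSET-Ikk2ca (9.94 to 34.7 CPM, adjusted p = 0.00456, edgeR) and in MMSET (10.4 to 61.2 CPM, adjusted p = 0.0111) than in Control(M) (2.71 to 5.20 CPM). Most of the 10 markers went the other way in the double transgenic groups. In MMSET-Ikk2ca 7 had a negative log2 fold change (median -1.12), with 2 called higher and 1 lower. In Ccnd1-Ikk2ca 8 were negative (median -1.64), with 1 called higher and 1 lower. In MMSET 4 were negative (median 1.18). Neutrophil markers summed to 1.11 to 220.1 CPM in Ccnd1-Ikk2ca against 48.5 to 547 CPM in Control(D), and to 0.774 to 14.3 CPM in MMSET-Ikk2ca against 40.9 to 203 CPM in Control(M). Plasma cell markers, most of whose sum is Jchain, summed to 7523 to 19494 CPM in Ccnd1-Ikk2ca against 54145 to 99913 CPM in Control(D), and to 4431 to 6388 CPM in MMSET-Ikk2ca against 31071 to 41705 CPM in Control(M), with none of the 8 at 0. Stromal markers (9 genes) reached 85.5 CPM in MMSET-Ikk2ca and 16.9 CPM in Control(M). The part of these in the results was not tested. The 6 precursor markers stayed at or below 4.02 CPM in every library. Xist passed 10 CPM in 3 of 6 libraries of each double transgenic group, in 4 of 4 of Ikk2ca(D) and of Ikk2ca(M), in 2 of 4 of Ccnd1 and 3 of 4 of MMSET, and in 1 of 4 of Control(D) and 2 of 4 of Control(M).

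Across the 36 libraries the members followed one another to different degrees, as a description in which libraries of a group share their genotype. Pearson's r of log2 CPM was 0.85 between Ebf1 and Ets1 and 0.81 between Ets1 and Pou2f1, and it was 0.086 between Irf8 and Pou2f1. Among 13236 other genes, the 3 most alike in pattern were Fmnl1 (r = 0.93), Btla and St6gal1 for Ebf1, Ptprcap (0.91), Jchain and Ctse for Ets1, and Gimap3 (0.86), Fgl2 and Lat2 for Pou2f1. They were H2-Aa (0.84), H2-Eb1 and H2-DMb2 for Pax5, H2-Aa (0.76), Gstt1 and H2-Eb1 for Spib, and Snn (0.84), Rcn3 and Coro1a for Bach2. For Irf8 they were Ctsh (0.83), Uhrf2 and Sat1, for Foxo1 Gse1 (0.83), Cited2 and Trim8, and for Bcl6 Zfp69 (0.67), Atp8a1 and Wfdc17.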

How the data were processed

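Bulk RNA-seq was made from 36 libraries of 2000 sorted cells each, primed with oligo-dT, amplified with template switching and prepared with Nextera XT, per the labels' protocols. Reads were converted with bcl2fastq 2.20.0.422 and quantified with Salmon 1.3.0 on GRCm38, and DESeq2 1.32.0 is also named, per the submitters' processing notes. The deposited files hold Salmon's estimated counts (NumReads) and TPM for each transcript, per the file headers. Neither strand use nor molecular identifiers are stated, so reads of a gene and its antisense partner cannot be told apart and intervals cover counting error only.

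The deposited estimated counts and TPM of 140825 transcripts were summed to 54203 genes, leaving out 865 transcripts with no gene (0.0636% to 0.134% of reads per library). After rounding to whole numbers, genes were tested in edgeR 4.0.16 (quasi-likelihood, robust, TMM, filterByExpr) in 1 fit for each cohort of 18 libraries, and effects were compared between cohorts in a fit of all 36. P-values were Benjamini-Hochberg adjusted over all genes of a fit, with 0.05 as the threshold. The SE of a log2 fold change is its size divided by the square root of the quasi-likelihood F. The code was checked on simulated data. Alternatives were DESeq2 1.42.0 (size factors or Wald test), no filter, immunoglobulin genes left out, a replicate block, Xist as covariate, all 36 libraries, only the groups compared, and each library left out (72 refits).

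The 9 genes and all lists were chosen with earlier results of these data known. Named genes were the 9, up to 4 called genes with the smallest p from each list in each comparison with a control, and the 3 genes most alike in pattern; other genes were named as markers, transgenes or list examples after their values were seen. Values of a few called list genes are left out here. Replicate numbers were not taken to pair samples, as the labels do not state a pairing. Deviations of same-numbered libraries from their group means had a median correlation of 0.0103 in cohort D and 0.0275 in cohort M. For differently numbered libraries it was -0.00369 and -0.00709. Such small values cannot exclude a pairing.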

Additional observations from a re-analysis of the deposited data

Results flagged for a closer look

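In 12 of 72 gene and group combinations, the highest or lowest library stood apart from its group by Dixon's criterion. Its rate of about 1 in 20 holds for normally distributed values. Many of these levels are near 0 and skewed, so the number cannot be set against that rate. Pax5 had such a high library in Ikk2ca(D) (1.77 CPM), Ccnd1-Ikk2ca (0.260 CPM), MMSET (1.11 CPM) and MMSET-Ikk2ca (0.693 CPM). Bach2 had one in MMSET (2.71 CPM) and in MMSET-Ikk2ca (0.360 CPM), Ebf1 in MMSET-Ikk2ca (0.0295 CPM) and Bcl6 in Ccnd1-Ikk2ca (0.846 CPM). For Pax5 and Ebf1 in MMSET-Ikk2ca and Bcl6 in Ccnd1-Ikk2ca, 5 of 6 libraries had no read. Any read in the other library would then give the flag. Irf8 had one in MMSET (56.2 CPM) and in Ikk2ca(M) (15.7 CPM), and Ets1 in MMSET (24.7 CPM). Spib had a low library in Ikk2ca(M), at 0 CPM beside 0.980 to 1.06 CPM. Library MMSET 1 was the high one for Pax5, Bach2, Irf8 and Ets1.

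The effects of both transgenes on Ebf1 differed between the cohorts by 7.45 on the log2 scale (adjusted p = 0.0107, edgeR), a size that rests on 2 reads in MMSET-Ikk2ca.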

How the results depend on the processing

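Of the values of single genes under the alternatives, 1404 kept direction and side of the threshold, 62 fell short of it, 37 passed it and 12 changed sign, none of them called. Counts of called genes changed by more than 1.5 times as follows. With DESeq2's Wald test they were 2 for Ikk2ca(D) against Control(D) (1 in edgeR), 2 for Ccnd1-Ikk2ca against Ikk2ca(D) (0), 1 for MMSET against Control(M) (0), 1 for the MMSET interaction (0, and 1 without immunoglobulin genes) and 2 for the difference of the double transgenic effects (1). With the replicate block they were 5 for Ccnd1-Ikk2ca against Control(D) (8), 1 against Ikk2ca(D) (0), 1 for MMSET-Ikk2ca against MMSET (2), 2 against Ikk2ca(M) (4) and 2 for the difference of the double transgenic effects (1). With Xist as covariate they were 0 for Ikk2ca(D), 1 for Ccnd1-Ikk2ca against Ikk2ca(D) and 2 for MMSET-Ikk2ca against Ikk2ca(M). With only the groups compared they were 0 for Ikk2ca(D), 1 for MMSET-Ikk2ca against MMSET and 1 against Ikk2ca(M). In both of these MMSET-Ikk2ca fits Ebf1 did not pass the low-count filter and was not tested. Without the filter Ikk2ca(M) gave 1 (2), and with all 36 libraries Ccnd1-Ikk2ca against Ccnd1 gave 3 (5). Apart from this filter loss of Ebf1, the causes were not tested. Whether replicate numbers pair samples is not known, so the block is given as a fit only.

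With a library left out, the counts ranged from 0 to 1 for Ikk2ca(D), 7 to 9 for Ccnd1-Ikk2ca, 0 to 1 for MMSET, 0 to 2 for Ikk2ca(M) and 3 to 5 for MMSET-Ikk2ca against control. They were 3 to 7 against Ccnd1, 0 to 2 against Ikk2ca(D), 2 to 3 against MMSET, 1 to 4 against Ikk2ca(M), 0 to 1 for the MMSET interaction and 1 to 2 for the difference of the double transgenic effects, and 0 throughout for Ccnd1, its interaction and the difference of the Ikk2ca effects. The number of genes lowest in a double transgenic group was 8 in CPM and 7 in TPM.

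Sign changes concerned small values. Irf8 in MMSET-Ikk2ca (-0.06) was 0.035 with the replicate block and -0.27 to 0.29 with a library left out. Bcl6 in MMSET (0.071) was -0.59 with Xist as covariate and -0.80 to 0.66 with a library left out. In Ccnd1, with a library left out, Ebf1 (-0.13) was -0.29 to 0.017, Ets1 (-0.15) was -0.45 to 0.056 and Foxo1 (0.17) was -0.024 to 0.50. Pax5, Bach2, Spib and Bcl6 rest on few reads, which limits their folds.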
